A study of Mus musculus with 20 samples.

Results

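Genes that mark platelets and the megakaryocytes that shed them were followed in mouse whole blood. The 10 genes are Pf4, Ppbp, Itga2b, Itgb3, Gp1ba, Gp1bb, Gp5, Gp6, Gp9 and Treml1. They were chosen by name: every non-control probe whose gene name on the array was that of a member was taken, which gave 13 probes of 39429, and 10 gene names of 31093. Earlier results of these data were known when the members were chosen. The RefSeq accession given for each of the 13 probes belonged to the same gene symbol in the RefSeq table used here.

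Blood RNA was measured 24 h after exposure on 20 single-colour Agilent arrays, 5 in each of 4 groups, to compare the radiation response of a mouse model of inflammatory bowel disease with that of its wild-type strain. WT mice were C57BL/6, and Il10-/- mice were B6.129P2-Il10tm1Cgn/J on the C57BL/6 background, a germline loss of the cytokine interleukin 10 in every cell type. Both came from crosses of heterozygous parents and were male littermates of 8 to 10 weeks. Mice of each genotype received 7 Gy of X-rays to the whole body or a mock exposure (0 Gy), and all blood was drawn by cardiac puncture into PAXgene solution and depleted of globin RNA. Each array is listed as an individual mouse.

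Platelets have no nucleus, and the RNA they carry was made by the megakaryocyte that released them. In blood they circulate with chemokines packed in their granules and with adhesion receptors on their surface, through which they bind von Willebrand factor, collagen and fibrinogen at an injured vessel. Most platelet genes are switched on together as a megakaryocyte matures, under transcription factors of the GATA and ETS families. In bulk blood, fewer platelets and less RNA in each platelet cannot be told apart, and neither can more platelets and more RNA in each.

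The probes for Itga2b and Gp1bb are shown because the array file gives no position for the first, and because the second is the probe of the receptor subunit with the lowest adjusted p after irradiation. Each is 60 bases long. The Gp1bb probe was mapped by the authors' array file to chr16:18621107-18621166 of mm9 on the minus strand, and 80.0% of its bases are G or C.
Itga2b: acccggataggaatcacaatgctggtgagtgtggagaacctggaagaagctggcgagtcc
Gp1bb: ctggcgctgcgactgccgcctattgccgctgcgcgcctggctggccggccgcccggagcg

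The promoters of 4 members are shown because the 10 genes moved together from array to array, as described further on. RefSeq windows of GRCm38.p6 were found for 9 members, and none for Itgb3. Each sequence is the 250 bases before the annotated start, read on the strand of the gene, and capitals mark the letters of the GATA words AGATAA or TGATAA and of the ETS words AGGAAG or CGGAAG, on either strand. The windows are chr5:90772185-90772434 (Pf4, plus strand), chr11:102469884-102470133 (Itga2b, minus strand), chr11:70638872-70639121 (Gp1ba, plus strand) and chr7:4397745-4397994 (Gp6, minus strand).
Pf4: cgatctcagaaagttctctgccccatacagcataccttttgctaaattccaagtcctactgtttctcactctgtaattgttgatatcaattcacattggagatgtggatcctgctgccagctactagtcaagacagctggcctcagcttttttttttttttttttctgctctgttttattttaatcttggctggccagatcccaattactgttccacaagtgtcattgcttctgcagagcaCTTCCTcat
Itga2b: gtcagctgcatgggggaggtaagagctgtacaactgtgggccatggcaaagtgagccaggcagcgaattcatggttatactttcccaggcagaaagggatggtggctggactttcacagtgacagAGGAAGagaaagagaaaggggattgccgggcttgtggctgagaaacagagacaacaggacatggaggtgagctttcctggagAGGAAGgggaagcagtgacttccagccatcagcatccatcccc
Gp1ba: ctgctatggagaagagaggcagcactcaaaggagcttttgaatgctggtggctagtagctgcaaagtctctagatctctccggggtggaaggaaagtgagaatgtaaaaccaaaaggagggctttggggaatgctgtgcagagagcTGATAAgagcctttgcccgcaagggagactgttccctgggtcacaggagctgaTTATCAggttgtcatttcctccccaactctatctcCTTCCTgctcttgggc
Gp6: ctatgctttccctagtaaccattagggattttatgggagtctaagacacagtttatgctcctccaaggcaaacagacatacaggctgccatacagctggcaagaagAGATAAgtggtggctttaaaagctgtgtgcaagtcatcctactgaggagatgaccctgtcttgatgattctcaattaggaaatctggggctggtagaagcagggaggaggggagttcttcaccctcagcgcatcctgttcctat

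A GATA word lay in 3 of the 9 windows (Gp1ba, Gp5 and Gp6) and an ETS word in 6 (Pf4, Itga2b, Gp1ba, Gp1bb, Gp5 and Gp9). Of 32851 RefSeq promoter windows of this length, 16.6% held a GATA word, 39.2% held an ETS word and 5.49% held both. Gp1ba and Gp5 held both. In Gp1ba the GATA words began 104 and 51 bases before the start, and the ETS word began 16 bases before it. GATA and ETS words did not overlap each other in the printed windows. A match is a description of the letters only.

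Values are log2 signals relative to the median of the 39429 non-control probes of the same array, so 1 unit is a doubling. The share of spots well above background lay between 34.6% and 57.8% on 19 arrays. It was 29.9% on replicate 5 of unirradiated WT, and its values stood 1.09 higher on the log2 scale when scaled to a reference array in place of its own median. Replicates 1 and 2 were the closest pair in every group. The robust SD between them was 0.23 to 0.34 on the log2 scale, while the remaining 36 pairs gave 0.41 to 1.39. They differed by 3.48 to 5.69 times the error of repeated spots, and the remaining pairs by 2.68 to 19.97 times. That error is measured within an array, and replicates 1 and 2 lay on different slides. The ratio therefore cannot tell separate mice from the same RNA measured again. Replicates 1 and 2 were kept as separate mice only because they are listed so. The Il10 probe, read to check the genotype labels, gave −1.54 ± 0.45 and −1.85 ± 0.61 (SD, n = 5) in WT at 0 Gy and 7 Gy, well above background on 0 of 10 arrays. It gave 2.75 ± 0.31 and 2.71 ± 0.62 (SD, n = 5) in mice labelled Il10-/-, well above background on 10 of 10, which runs against a loss of the transcript. The probe reads the transcript and not the protein, so it cannot decide the genotype. Every direction between genotypes below therefore rests on the labels.

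The blood carried a strong platelet signal in every library. The brightest probe of each of the 10 genes was well above background on 20 of 20 arrays, and no member probe was saturated or marked as an uneven spot. All 13 probes passed the filters and were tested among 18587 features. Of 64 other platelet genes on the array, described below, 60 passed the background filter. The least detected among them were Thpo, the thrombopoietin gene, Egf and Adra2a, which were well above background on 0 of 20 arrays.

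The order of the group means was the same at both ends for all members. All 10 genes had their lowest mean in unirradiated WT and their highest mean in irradiated mice labelled Il10-/-. Between these ends, the mean of unirradiated mice labelled Il10-/- lay below that of irradiated WT for 8 genes and above it for Itgb3 and Gp1ba. Arrays of these middle groups overlapped for all 10 genes, so their order is not set beyond the spread.

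**Figure D1:**
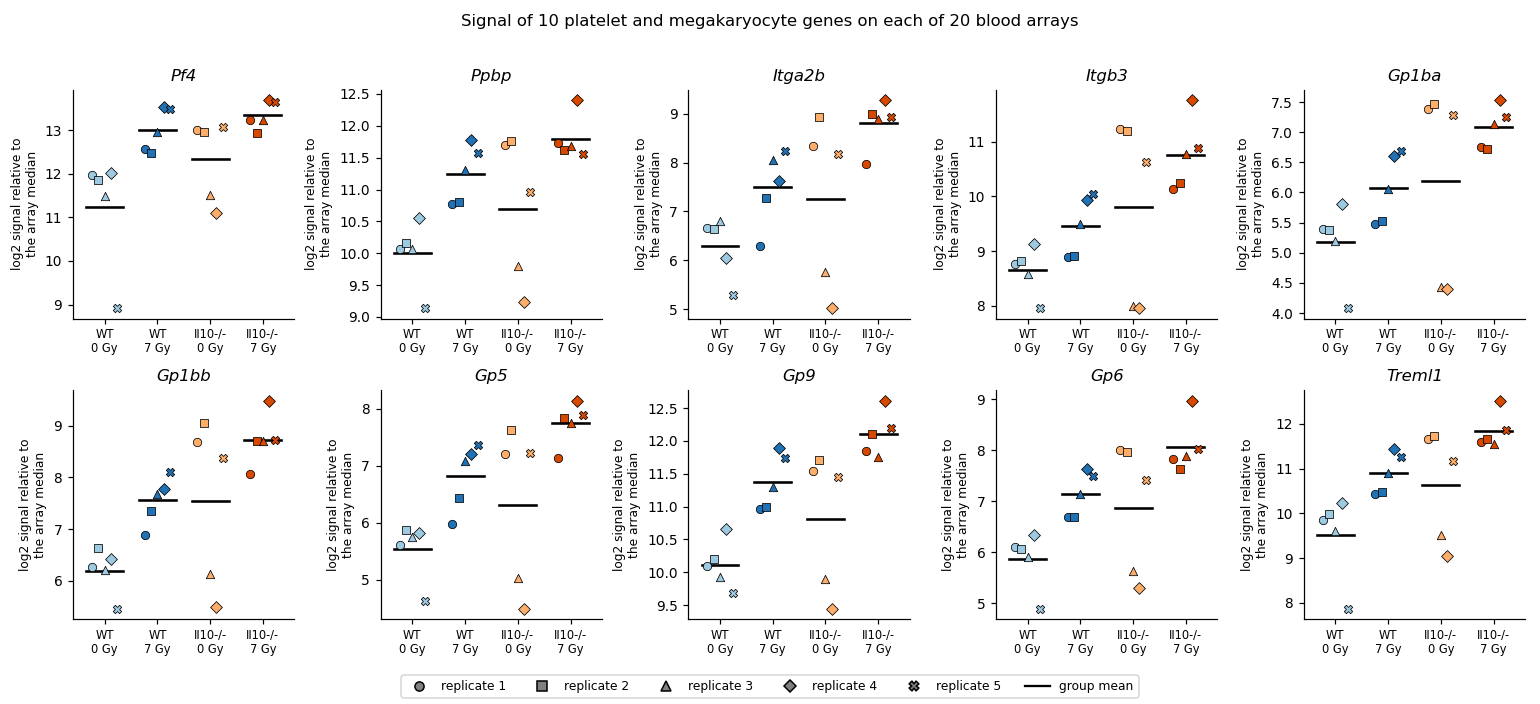
Log2 signal relative to the array median (vertical axes, a separate range for each gene) of the brightest probe of each of 10 genes on 20 arrays, in 4 groups of 5; symbols give the replicate number and bars the group mean. Replicate 5 is the lowest unirradiated WT array for every gene, and replicates 3 and 4 are the lowest unirradiated arrays labelled Il10-/-.

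Pf4, platelet factor 4, is released from the alpha granules and binds heparin. Its log2 signal in unirradiated WT was 11.96, 11.85, 11.50, 12.03 and 8.91 in replicates 1 to 5, and in irradiated WT 12.56, 12.48, 12.95, 13.54 and 13.49. Arrays labelled Il10-/- gave 13.004, 12.97, 11.52, 11.10 and 13.07 without, and 13.25, 12.95, 13.24, 13.69 and 13.65 with irradiation. Replicate 5 of unirradiated WT was low by itself, and every irradiated WT array lay above every unirradiated one. The difference between irradiated and unirradiated WT was 1.76 (SE 0.55, adjusted p = 0.0424), and 1.17 without that replicate. Irradiated arrays of the genotypes overlapped, with a difference of 0.35 (SE 0.28, adjusted p = 0.644), the smallest of the 10 members in this comparison.

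Ppbp, the precursor of neutrophil-activating peptide 2 and a neighbour of Pf4 on chromosome 5, ran from 9.13 to 10.56 (median 10.07) at 0 Gy in WT and from 10.78 to 11.78 (median 11.31) at 7 Gy, without overlap. It ran from 9.23 to 11.76 (median 10.96) and from 11.55 to 12.40 (median 11.68) in mice labelled Il10-/-, where the ranges overlapped. The differences after irradiation were 1.25 (SE 0.39, adjusted p = 0.0419) in WT and 1.11 (SE 0.46, adjusted p = 0.108) in mice labelled Il10-/-.

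Itga2b and Itgb3 encode the integrin subunits that pair as the platelet fibrinogen receptor. Itga2b measured 6.66, 6.65, 6.80, 6.04 and 5.28 in unirradiated WT, replicates 1 to 5, and 6.28, 7.27, 8.05, 7.63 and 8.23 in irradiated WT. Arrays labelled Il10-/- gave 8.35, 8.93, 5.75, 5.02 and 8.18 at 0 Gy and 7.98, 8.997, 8.89, 9.28 and 8.93 at 7 Gy. Replicates 3 and 4 of the unirradiated arrays labelled Il10-/- lay more than 2 units below the other 3 of their group, replicate 3 within the range of unirradiated WT and replicate 4 below it. Its radiation differences were 1.21 (SE 0.45, adjusted p = 0.085) in WT and 1.57 (SE 0.68, adjusted p = 0.117) in mice labelled Il10-/-. After irradiation the arrays labelled Il10-/- were 1.32 higher than WT (SE 0.38, adjusted p = 0.355), and 5 of 5 slides showed that direction.

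Itgb3 measured 8.77, 8.82, 8.59, 9.13 and 7.96 in unirradiated and 8.89, 8.91, 9.49, 9.93 and 10.04 in irradiated WT. At 0 Gy the arrays labelled Il10-/- gave 11.22, 11.18, 8.001, 7.97 and 10.63, and at 7 Gy 10.13, 10.25, 10.77, 11.76 and 10.88. All 5 irradiated arrays labelled Il10-/- lay above all 5 irradiated WT arrays, a difference of 1.30 (SE 0.36, adjusted p = 0.339). Unirradiated arrays labelled Il10-/- were either above 10 or near 8, with none between. Its radiation differences were the smallest of the members in WT, 0.80 (SE 0.39, adjusted p = 0.193), and 0.95 (SE 0.67, adjusted p = 0.336) in mice labelled Il10-/-. A dimmer second Itgb3 probe, well above background on 19 of 20 arrays, gave 1.53 (adjusted p = 0.0553) and 1.32 (adjusted p = 0.177).

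The receptor for von Willebrand factor is built from the products of Gp1ba, which carries the binding site, and of Gp1bb, Gp9 and Gp5. Gp1bb, in which the lowest adjusted p of the 10 genes after irradiation of WT was found, measured 6.26, 6.64, 6.20, 6.42 and 5.45 in unirradiated and 6.89, 7.34, 7.69, 7.77 and 8.11 in irradiated WT. Arrays labelled Il10-/- measured 8.68, 9.05, 6.12, 5.49 and 8.38 at 0 Gy and 8.06, 8.71, 8.72, 9.49 and 8.72 at 7 Gy. WT groups did not overlap, with a difference of 1.37 (SE 0.38, adjusted p = 0.0262). Irradiated arrays labelled Il10-/- lay within the range of the unirradiated ones except for replicate 4, with a difference of 1.19 (SE 0.64, adjusted p = 0.2).

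Of the other Gp1bb probes, the third was called in WT. Its mean without irradiation was 1.41 ± 0.70 (SD, n = 5), against 3.21 ± 0.45 (SD, n = 5) after it, and it rose by 1.79 (SE 0.42, adjusted p = 0.0105). The array file assigns it to a different RefSeq transcript from the brightest probe. The second probe was well above background on 6 of 20 arrays and differed by 0.46 (SE 0.46, adjusted p = 0.557). The call of the third probe was lost when any of 6 arrays was omitted (adjusted p up to 0.0299), with normexp background correction and with all groups in 1 fit. Gp1bb overlaps Septin5 on chromosome 16 in the RefSeq table, and its probes all lie on the minus strand. Whether the Gp1bb probes also read Septin5 transcripts was not tested.

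Gp9, whose product joins the same receptor, measured 10.10, 10.20, 9.93, 10.66 and 9.68 in unirradiated and 10.96, 10.99, 11.30, 11.89 and 11.74 in irradiated WT. In mice labelled Il10-/- it measured 11.55, 11.70, 9.90, 9.44 and 11.45 before and 11.84, 12.11, 11.76, 12.61 and 12.19 after irradiation. It was the only member whose irradiated and unirradiated arrays did not overlap in both genotypes. The differences were 1.26 (SE 0.37, adjusted p = 0.0314) in WT and 1.29 (SE 0.44, adjusted p = 0.0523) in mice labelled Il10-/-.

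Gp1ba ran from 4.08 to 5.81 at 0 Gy in WT and from 5.47 to 6.68 at 7 Gy, where the groups overlapped. In irradiated mice labelled Il10-/- it ran from 6.72 to 7.53, above every irradiated WT array, with a difference of 1.01 (SE 0.31, adjusted p = 0.365). Gp5, the last subunit of the complex, ran from 4.64 to 5.87 and from 5.98 to 7.36 in WT without overlap, a difference of 1.28 (SE 0.41, adjusted p = 0.0458). Its groups overlapped in mice labelled Il10-/- and differed by 1.43 (SE 0.56, adjusted p = 0.0899).

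Gp6 encodes the platelet receptor for collagen. It ran from 4.89 to 6.34 at 0 Gy in WT and from 6.69 to 7.64 at 7 Gy, and the difference was 1.28 (SE 0.40, adjusted p = 0.0408). Treml1, a receptor stored in alpha granules and moved to the surface of activated platelets, measured 9.86, 9.98, 9.62, 10.24 and 7.86 in unirradiated and 10.43, 10.49, 10.91, 11.45 and 11.27 in irradiated WT. In mice labelled Il10-/- it measured 11.67, 11.73, 9.52, 9.05 and 11.16 at 0 Gy and 11.60, 11.68, 11.56, 12.52 and 11.87 at 7 Gy. WT groups did not overlap for either gene, and irradiated arrays labelled Il10-/- lay above irradiated WT for Treml1, by 0.93 (SE 0.28, adjusted p = 0.367). The WT difference of Treml1 was 1.40 (SE 0.46, adjusted p = 0.054), and 0.98 to 1.58 with each array left out in turn.

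**Figure D2:**
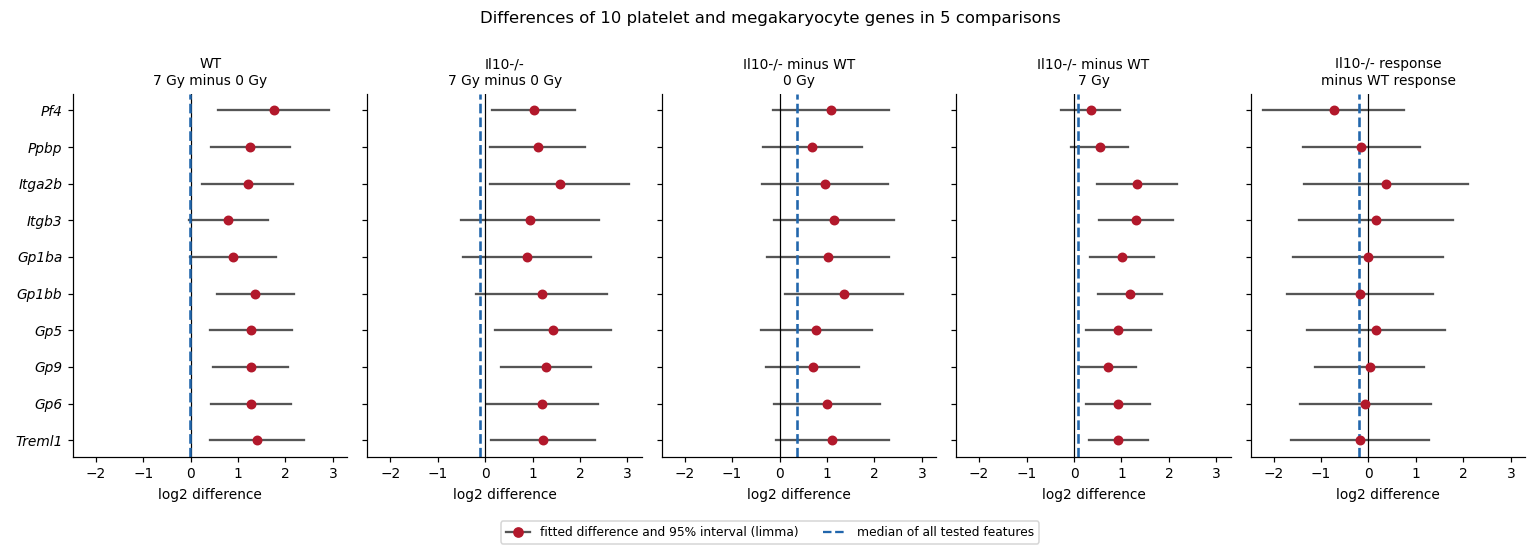
Fitted log2 differences (horizontal axes, points) with 95% intervals (lines) of the brightest probe of each gene in 5 comparisons, each panel a comparison; the dashed line is the median of all 18587 tested features. All 10 points lie right of 0 in the first 4 panels, with medians of 1.27, 1.20, 1.01 and 0.93, and on both sides of it in the last, from −0.73 for Pf4 to 0.37 for Itga2b.

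Did the platelet genes change after irradiation of WT mice? All 10 were higher at 7 Gy, by 0.80 (Itgb3) to 1.76 (Pf4), with a median of 1.27 where the median of all features was −0.02. None passed the call rule of an unadjusted p below 0.001 and a Benjamini-Hochberg rate under 10% in limma (0 of 10), a rule that 6.80% of the features passed. Higher at an unadjusted p below 0.05 were 8 of 10, against 19.5% of all features. The groups did not overlap, irradiated above unirradiated, for 7 of 10, against 11.8% of all features. The call rested on the rule and on the processing. At a Benjamini-Hochberg rate below 5% alone, without the limit on the unadjusted p, 6 members passed, where 14.6% of all features did. With quantile normalization 4 were called, against 8.18% of features. From the processed values in the authors' table there were 2, against 10.5%, and with scaling to the reference array 1, against 11% of features. None of the 10 was called with the 75th percentile in place of the array median or with normexp background correction. The same held without the filters and with all groups in 1 fit.

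Every slide held 1 array of each group, so the WT response could also be read within slides. Irradiated exceeded unirradiated on 5 of 5 slides for 9 members and on 4 of 5 for Itga2b. The median of the 10 members within a slide was 0.58, 0.63, 1.27 and 1.27 for replicates 1 to 4 and 2.64 for replicate 5, the slide of the weak unirradiated array. Without that array the median of the 10 fitted differences was 1.03. With the slide as a block in the fit, 0 of 10 members were called.

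In mice labelled Il10-/-, all 10 genes were also higher after irradiation, by 0.88 (Gp1ba) to 1.57 (Itga2b). Their median was 1.20, against −0.10 over all features. None was called (0 of 10), where 9.16% of features were, and 7 of 10 were higher at an unadjusted p below 0.05, against 13.2% of features. Irradiated arrays lay clear above unirradiated ones for 1 of 10 (Gp9), against 6.13%.

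That difference was uneven between slides. The median of the members was −0.13 and −0.10 for replicates 1 and 2 and 0.60 for replicate 5, but 2.43 for replicate 3 and 3.56 for replicate 4. With normexp the median of the fitted differences was 0.80 and 0 of 10 members had an unadjusted p below 0.05. The median of all features was −0.32 in that setting. Without unirradiated replicate 3 or 4 the median of the fitted differences was 0.89 or 0.78, with 1 of 10 members at an unadjusted p below 0.05 in either case, and 1 of 10 also without irradiated replicate 4. With replicates 1 and 2 of every group averaged as 1 array, a choice made after seeing the data, the median was 1.53 and 8 of 10 had such a p. Shares of all features at that p were not set beside these counts, so they are not read as a result about the members.

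The spread in unirradiated mice labelled Il10-/- set these genes apart from most features of the same arrays. The SD over the 5 arrays was 0.95 to 1.74, with a median of 1.37, while the median SD of all tested features was 0.42. In the other groups the median SD of the members was 0.54 in unirradiated WT, 0.48 in irradiated WT and 0.38 in irradiated mice labelled Il10-/-, against 0.80, 0.51 and 0.47 over all features. Replicates 3 and 4 were the lowest pair of the group for 10 of 10 members. The other groups' arrays on the same slides were not low: replicate 4 was the highest irradiated array labelled Il10-/- for 10 of 10.

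Before irradiation, mice labelled Il10-/- exceeded WT by 0.69 (Ppbp) to 1.35 (Gp1bb), with a median of 1.01 where all features had a median of 0.36. None of the 10 was called, where 0.845% of features were, and 1 of 10 (Gp1bb) was higher at an unadjusted p below 0.05, against 12.8%. Groups overlapped for all 10, where 3.98% of features lay higher without overlap. Within slides the median of the members was 1.75, 1.83 and 2.78 for replicates 1, 2 and 5, and −0.27 and −1.18 for replicates 3 and 4. All 10 had an unadjusted p below 0.05 without replicate 4 labelled Il10-/-, at a median of 1.43, and 0 of 10 without the weak WT array, at 0.70. All features had medians of 0.35 and 0.15 in these fits. Their share at that p was not set beside the counts, which are not read as a result about the members.

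After irradiation the same direction was seen with less spread. Mice labelled Il10-/- exceeded WT by 0.35 (Pf4) to 1.32 (Itga2b), at a median of 0.93 against 0.08 over all features. No member was called, with adjusted p of 0.316 to 0.644, in a comparison where 0.00538% of features were called. Higher at an unadjusted p below 0.05 were 8 of 10, against 8.08% of features, and arrays of the genotypes did not overlap for 3 of 10 (Itgb3, Gp1ba and Treml1), against 2.25%. The direction held on 5 of 5 slides for 9 members and on 4 of 5 for Ppbp, and the median within a slide was 0.55 to 1.19. It depended on the background correction: with normexp on the mean and background signals the median was 0.04, and Pf4, Ppbp and Gp9 were lower in mice labelled Il10-/-. The median of all features was −0.50 with normexp, so the members still lay above it.

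An interaction term over all 20 arrays compared the radiation response of the members in the genotypes. The differences ran from −0.73 (SE 0.72, adjusted p = 0.803) for Pf4 to 0.37 (SE 0.83, adjusted p = 0.931) for Itga2b. The 95% intervals of these differences, −2.22 to 0.76 and −1.36 to 2.09, leave room for large differences in either direction. No member was called, as no feature was (0%), and 0 of 10 had an unadjusted p below 0.05, against 7.00% of features. The sign was positive for 4 of 10, for 9 of 10 with the 75th percentile in place of the median, and for 0 of 10 without unirradiated replicate 3 or 4 labelled Il10-/-. It was also positive for 0 of 10 with normexp, where the median was −1.09 and Pf4 stood at −2.52. That median was −0.04 in the fit given first. Over all features the median was −0.20 in that fit, −1.01 with normexp and 0.12 with the 75th percentile.

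Within groups the 10 genes followed each other closely. Deviations of each gene from its group mean were correlated over the 20 arrays, as a description of arrays that share their normalization and slides. For the 45 pairs of members r ran from 0.734 to 0.981 with a median of 0.941, and from 0.804 to 0.985 without the weak array. Pf4 followed the mean of the other 9 least (r = 0.825) and Gp1ba most (r = 0.981).

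**Figure D3:**
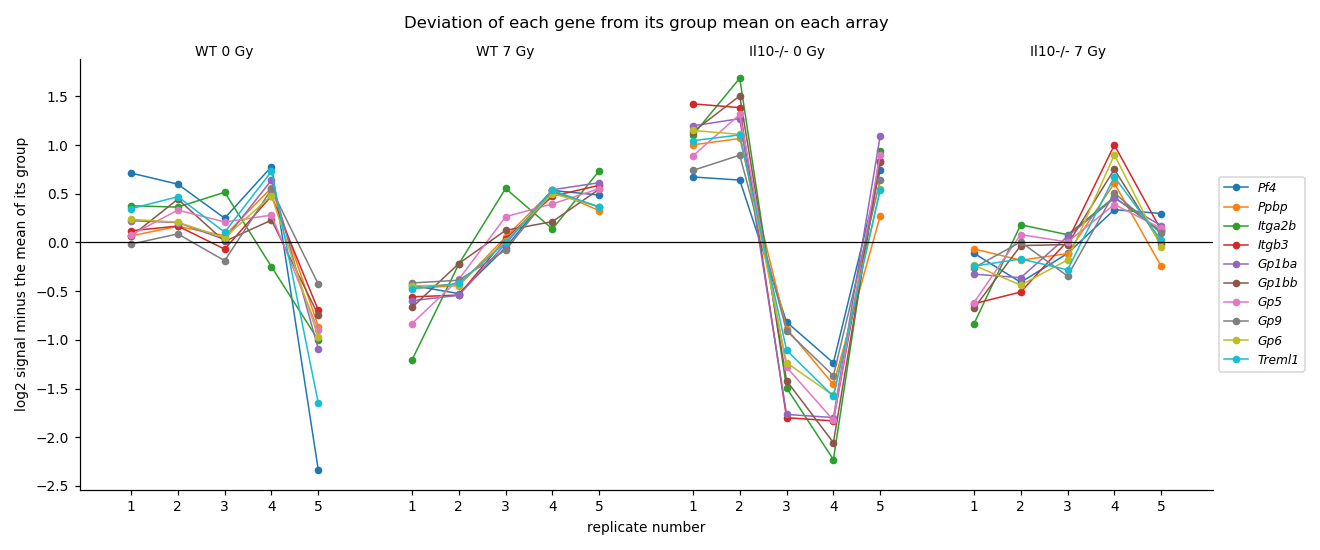
Log2 signal of each gene minus the mean of its group (vertical axis) on each array (horizontal axis, replicate number within each of 4 groups); each line is a gene. The 10 lines run together, with unirradiated replicates 3 and 4 labelled Il10-/- below 0 for every gene and a drop of Pf4 and Treml1 on unirradiated WT replicate 5.

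The genes outside the list with the most similar deviations were found by their r with the mean deviation of the 10 members over the 20 arrays. The 8 highest were Adgrg1 (0.991), Alox12 (0.989), Rsu1 (0.988), Slc24a3 (0.986), Pls1 (0.982), Slc2a3 (0.981), Elovl7 (0.979) and Nol4l (0.979). Alox12 encodes the platelet 12-lipoxygenase. Without the weak array these r were 0.976 to 0.991.

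**Figure D4:**
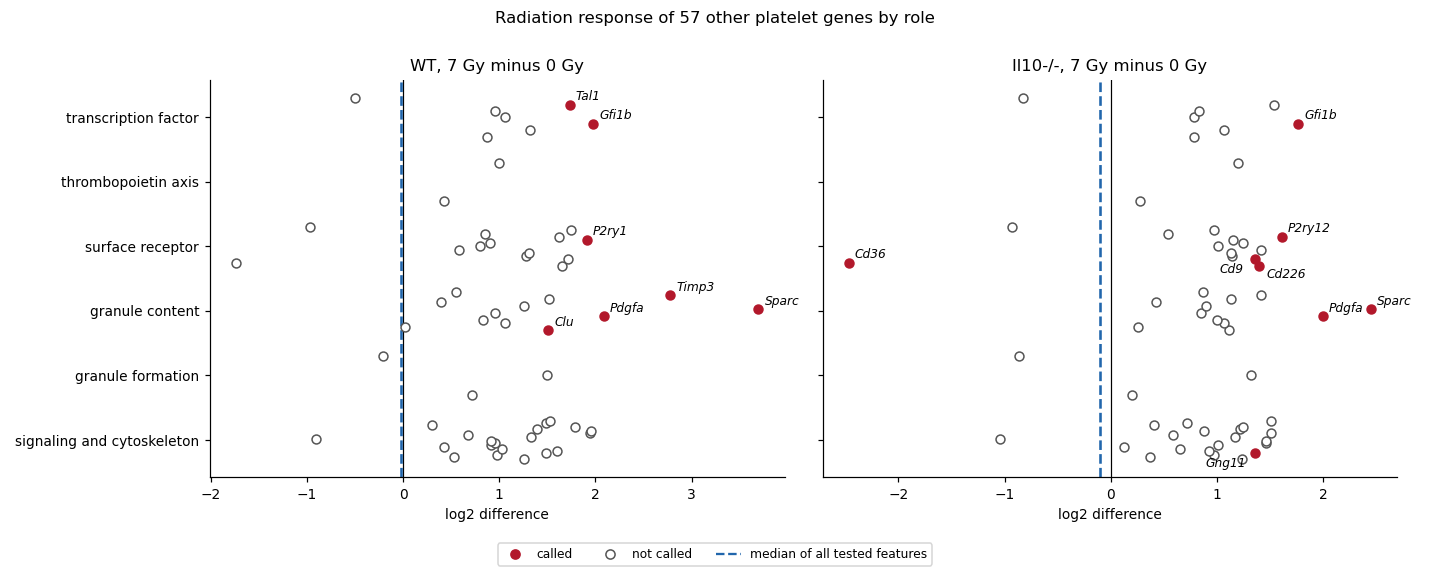
Log2 difference after irradiation (horizontal axes) of 57 other platelet genes, 1 probe each, by role (vertical axis), in WT (left) and in mice labelled Il10-/- (right); filled points were called and carry their names, open points were not called, and the dashed line is the median of all tested features. In each panel 52 of 57 points lie right of 0.

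Other genes of platelets and megakaryocytes were taken from a hand-written list of 65, of which 64 were on the array and 57 were tested. They are transcription factors, the thrombopoietin axis, further surface receptors, granule contents, granule formation, and signaling and cytoskeleton. This list and those of other cells below were chosen with earlier results of these data known, so their counts are not an independent test. After irradiation 7 rose and 0 fell in WT, where 4.48% and 2.32% of all features did. The counts in mice labelled Il10-/- were 7 that rose and 1 that fell, where 3.29% and 5.87% of all features did. The median difference of the 57 was 1.06 in WT and 1.01 in mice labelled Il10-/-, and 52 of 57 were above 0 in each.

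The largest called rises in WT were those of Sparc, a matrix-binding glycoprotein of granules and stroma, at 3.70 (SE 0.57, adjusted p = 0.000878), of Timp3, an inhibitor of metalloproteinases, at 2.77 (SE 0.47, adjusted p = 0.00161), and of the growth factor gene Pdgfa at 2.09 (SE 0.39, adjusted p = 0.00277). In mice labelled Il10-/- Sparc rose by 2.45 (SE 0.31, adjusted p = 0.000332), Pdgfa by 2.00 (SE 0.29, adjusted p = 0.000847) and Gfi1b, a transcription factor of megakaryocytes and red cells, by 1.76 (SE 0.31, adjusted p = 0.00259). Cd36, a scavenger receptor that platelets share with monocytes and red cell precursors, fell by 2.47 (SE 0.40, adjusted p = 0.00149). Sparc and Timp3 did not follow the members from array to array (r = −0.36 and −0.02), while Gfi1b (0.86), Cd36 (0.79) and Pdgfa (0.72) did so in part.

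Between genotypes none of the 57 was called. Before irradiation 57 of 57 were above 0 in mice labelled Il10-/-, with a median of 0.81 against 0.36 over all features, and after irradiation 55 of 57, with a median of 0.68 against 0.08. Higher at an unadjusted p below 0.05 were 10 of 57 before irradiation, where 12.8% of all features were, and 31 of 57 after it, where 8.08% were. The former share is near that of all features. In the interaction the median was −0.16 and that of all features −0.20, with 0 called.

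**Figure D5:**
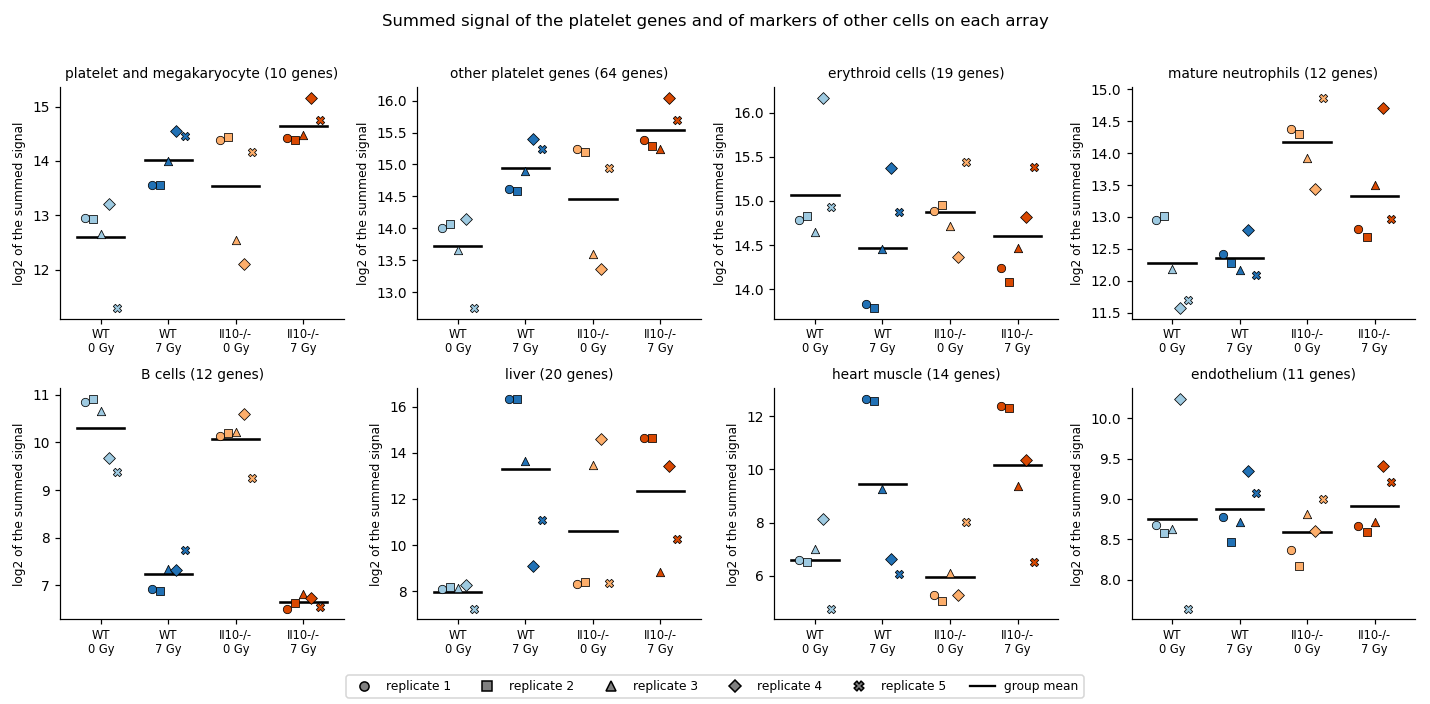
Log2 of the summed signal (vertical axes, a separate range for each list) of the 10 genes, of 64 other platelet genes and of marker lists of other cells and tissues on each array, in 4 groups of 5; symbols give the replicate number and bars the mean. Liver markers are higher on unirradiated replicates 3 and 4 labelled Il10-/-, the arrays on which the platelet genes are low, while irradiated replicate 4 labelled Il10-/- has the highest platelet sum (15.2) and a liver sum of 13.4.

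Markers of other cells moved with these groups, and their part in the platelet values was not tested. Of 11 B-cell markers tested, 10 were called lower in each genotype after irradiation, with summed log2 signals of 9.38 to 10.9 and 6.88 to 7.75 in WT, and of 9.24 to 10.6 and 6.50 to 6.83 in mice labelled Il10-/-, at 0 and 7 Gy. Of 18 erythroid genes tested, 10 in WT and 13 in mice labelled Il10-/- were called lower, and 1 in WT was called higher. Of all features, 2.32% in WT and 5.87% in mice labelled Il10-/- were called lower. The erythroid sums overlapped between doses, at 14.7 to 16.2 and 13.8 to 15.4 in WT at 0 and 7 Gy. In mice labelled Il10-/- they were 14.4 to 15.4 and 14.1 to 15.4. Neutrophil markers were higher in unirradiated mice labelled Il10-/- (7 of 12 called), at 13.4 to 14.9 against 11.6 to 13.01 in WT. After irradiation 11 of 12 were higher in mice labelled Il10-/-, with a median of 1.12, 8 of 12 at an unadjusted p below 0.05 and 0 called, and replicate 4, the highest array for the members, also had the highest neutrophil sum of its group (14.7). Monocyte sums were 8.57 to 10.2 and 10.3 to 11.3 in WT and 9.64 to 10.4 and 10.2 to 11.1 in mice labelled Il10-/-, at 0 and 7 Gy, and of 8 tested genes 2 were called higher and 1 lower in WT, and 0 higher and 3 lower in mice labelled Il10-/-. T-cell sums were 8.32 to 10.03 and 8.40 to 9.65 in WT and 9.68 to 9.93 and 8.89 to 9.74 in mice labelled Il10-/-, with 0 of 8 called higher and 1 lower in each genotype.

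Liver markers, which blood cells hardly express, were called higher after irradiation in WT for 12 of 18 tested genes, at 7.23 to 8.29 and 9.10 to 16.3 at 0 and 7 Gy. The sums in mice labelled Il10-/- were 8.34 to 14.6 and 8.83 to 14.6, and 0 of 18 were called; between genotypes at 0 Gy 2 of 18 were called higher. On unirradiated arrays labelled Il10-/- the liver sum was 13.5 and 14.6 for replicates 3 and 4 and 8.34 to 8.38 for the others, and the platelet genes were low on the former arrays. On irradiated WT arrays it was 16.3 for replicates 1 and 2, the arrays with the lowest member mean, 13.7 for replicate 3, and 9.10 and 11.1 for replicates 4 and 5. The remaining groups did not share this inverse pattern throughout. On irradiated arrays labelled Il10-/- the liver sum was 14.6 for replicates 1 and 2, which had the lowest member means of that group (9.63 and 9.85). It was 8.83 for replicate 3 and 10.2 for replicate 5, with member means of 9.94 and 10.10. Replicate 4 had a liver sum of 13.4 and the highest member mean of the 20 arrays (10.64). Unirradiated WT replicate 5 had both the lowest member mean (6.79) and the lowest liver sum (7.23). Heart muscle sums were 4.75 to 8.13 and 6.06 to 12.7 in WT, and 5.05 to 8.01 and 6.51 to 12.4 in mice labelled Il10-/-, with 5 of 8 tested genes called in the latter. Of 11 endothelial markers, Emcn and Tek were well above background on 0 of 20 arrays, Cdh5 on 5, Kdr and Plvap on 20. Of 5 tested, 2 rose in irradiated WT (Plvap by 1.82 and Egfl7 by 3.45, named after their values were seen), and none was called in mice labelled Il10-/-, where 3 were higher at an unadjusted p below 0.05. The endothelial sums overlapped between all groups, while the mean log2 signal of the list ran from 0.37 to 1.23 and from 1.24 to 2.28 in mice labelled Il10-/- at 0 and 7 Gy, without overlap, and from −0.17 to 1.10 and from 0.87 to 2.83 in WT.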

How the data were processed

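Blood RNA was hybridised by the authors to 20 single-colour Agilent arrays, each listed as an individual mouse. The deposited scanner files give the intensity of every spot (background-subtracted processed signal, Agilent Feature Extraction 12.0.2.2 in the headers and 10.7 per the labels, positions in mm9). The deposited series table gives log2 values of the same arrays, which the authors had scaled to a reference array, and was used as an alternative. Uneven spots were left out, log2 signals were averaged per probe, and the array median over 39429 non-control probes was subtracted. Probes that 25% or more of the arrays marked as weak or uneven were dropped (22997 left), as were those with under 20% of arrays at least 1.5-fold from the probe median (18587 left).

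Groups of 5 came from the labels. limma (lmFit and eBayes) was fitted to each pair of groups, and to all 20 arrays for the interaction. A feature was called at p below 0.001 and a Benjamini-Hochberg rate under 10%. The number of arrays limits the precision. The brightest probe stood for each gene. Named genes were the members, up to 3 largest called rises and falls of the platelet list per comparison, and the 8 genes most like the members. The members and all lists were chosen with earlier results of these data known.

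Alternatives were array scaling (75th percentile, quantile, reference array), normexp background correction (offset 50), the filters, 1 fit for all groups, the slide as a replicate block, a rate under 5%, each array left out, and, chosen after seeing the data, replicates 1 and 2 averaged. Each slide held replicates of 1 number from all groups. Same-numbered arrays did not deviate together throughout, with mean correlations of −0.13 to 0.41 between pairs of groups, so the fit has no block. The highest mean was that of the irradiated groups of both genotypes. There r was 0.66, 0.68 and 0.61 for replicates 1, 2 and 5, and 0.14 and −0.02 for replicates 3 and 4. The main fit of that comparison leaves this pairing out. Scripts were tested on simulated data. R 4.3.3, limma 3.58.1, Python 3.11.15 and matplotlib 3.10.9 were used.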

Additional observations from a re-analysis of the deposited data

Results flagged for a closer look

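Of 52 sets of 5 arrays (13 probes in 4 groups), 5 held an array whose gap to its nearest neighbour, divided by the range of the set, was above Dixon's critical value of 0.71, where chance gives about 1 in 20. In unirradiated WT, replicate 5 was far below the others for Pf4 (8.91, nearest 11.50), Gp5 (4.64, nearest 5.61) and Treml1 (7.86, nearest 9.62). This is the array with the fewest spots well above background, 29.9%, and its part in these values was not tested. In irradiated mice labelled Il10-/-, replicate 4 was far above the others for Ppbp (12.40, nearest 11.73) and for the second Itgb3 probe (4.41, nearest 3.52).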

How the results depend on the processing

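Over 21 settings each, the 10 members were higher in 210 of 210 values in the WT response, in the response of mice labelled Il10-/- and in the baseline difference, and in 207 of 210 after irradiation. The exceptions came with normexp: −0.52 for Pf4, −0.38 for Ppbp and −0.19 for Gp9, where the median of all features was −0.50. These values are not independent of each other. All settings reuse the same arrays, and the filters, the fit of all groups, the block and the changed rate leave the fitted differences as they were. In the WT response 4 members were called with quantile normalization (Pf4, Ppbp, Gp9 and Treml1; 8.18% of all features), 1 with reference scaling (Gp1bb; 11%), 2 with the authors' table (Gp1bb and Gp6; 10.5%) and 6 at a rate under 5% (14.6%), and 0 with each array left out in turn. The third Gp1bb probe lost its call with normexp (0.66) and in the fit of all groups (1.79), and without 6 of the 10 arrays, over a range of 1.58 to 1.98 for all 10. The second Gp1bb probe, near background, turned to −0.42 at baseline and −0.17 in WT with the authors' table. The interaction of Itga2b was −0.69 with normexp and −0.19 to 0.79 with arrays left out. The cause of these changes was not tested.

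With the replicate block 0 members were called in any comparison and no other member call changed. At an unadjusted p below 0.05 stood 5 of 10 at baseline, 8 in WT, 3 in mice labelled Il10-/- and 9 after irradiation. The share of all features at that p was not set beside these counts, so they are not read as a result about the members. Scaling moved the median of all features at baseline from 0.36 to −0.07 (75th percentile) and −0.02 (reference array), and that of the members from 1.01 to 0.66 and 0.70. Averaging replicates 1 and 2 left no member called in any comparison. The median of the members was then 0.77 at baseline, 1.46 in WT and 0.89 after irradiation, where all features gave 0.40, 0.08 and 0.09. Dim probes are limited by signal over background: the second Gp1bb probe was well above it on 6 of 20 arrays.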
